A study of Homo sapiens with 6 samples.

Results

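The genes of 10 Polycomb and trithorax regulators were followed in cultures of 3PPE, the endoderm of the third pharyngeal pouch, treated with an siRNA against HOXA3. They were EZH2, EZH1, EED, SUZ12 and JARID2 of Polycomb repressive complex 2 (PRC2), RING1, RNF2, BMI1 and CBX2 of Polycomb repressive complex 1 (PRC1), and KMT2A of the trithorax group. They were chosen by symbol, and all 10 were found through their Ensembl identifiers in GENCODE release 29 among the 58735 genes of the count table. RNA was sequenced from 3 cultures that received a negative control siRNA (NC) and 3 that received a HOXA3 siRNA (Si-HOXA3). All 6 came from H9 cells, a line of human embryonic stem cells kept on mouse embryonic fibroblast feeder cells, so every value describes a single line. The endoderm was induced with Activin A and WNT3A and then exposed to retinoic acid, SB431542, BMP4 and IWP2. Each siRNA was given with a Lipofectamine reagent at day 7, and cells were harvested at day 9. The labels give the genotype of the NC cultures as wild type and that of the other 3 as HOXA3 knockdown. An siRNA lowers the level of its target for a time and leaves the gene intact.

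PRC2 places methyl groups on lysine 27 of histone H3 through EZH2 or its paralog EZH1, with EED and SUZ12 as the other core subunits. PRC1 attaches ubiquitin to histone H2A through RING1 or RNF2, and its canonical form carries a CBX protein that reads the mark of PRC2. KMT2A places methyl groups on lysine 4 of histone H3 and is known for keeping HOX genes active, whereas Polycomb complexes are known for keeping silent the HOX genes that a cell does not use.

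EZH2 and EZH1 take the same place in PRC2, and the regions around their starts are shown because the balance of these 2 genes was measured below. Each line gives the 250 bases before and the 50 bases after a start annotated by RefSeq on GRCh38.p14, 5′ to 3′ on the strand of the gene, and the capitals mark a match to an E2F-type motif, the sequence known to be bound by cell cycle factors of the E2F family. The window of EZH2 lies at chr7:148884242-148884541 and that of EZH1 at chr17:42744991-42745290, both on the minus strand.
EZH2: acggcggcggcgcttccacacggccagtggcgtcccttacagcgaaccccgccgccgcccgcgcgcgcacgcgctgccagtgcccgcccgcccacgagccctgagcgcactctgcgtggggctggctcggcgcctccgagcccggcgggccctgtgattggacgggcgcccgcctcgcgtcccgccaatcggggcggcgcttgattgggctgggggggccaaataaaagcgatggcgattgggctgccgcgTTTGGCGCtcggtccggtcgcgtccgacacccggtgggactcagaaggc
EZH1: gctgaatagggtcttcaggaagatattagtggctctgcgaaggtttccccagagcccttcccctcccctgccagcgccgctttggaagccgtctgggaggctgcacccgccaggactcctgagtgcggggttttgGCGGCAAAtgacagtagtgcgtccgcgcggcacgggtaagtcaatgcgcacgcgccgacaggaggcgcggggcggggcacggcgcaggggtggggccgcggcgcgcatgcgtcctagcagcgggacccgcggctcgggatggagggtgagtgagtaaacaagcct
The motif was searched on both strands as TTTCGCGC, TTTCCCGC, TTTGGCGC and TTTGCCGC. RefSeq windows were found for 9 of the 10 genes. Of the 12 windows of these genes 3 held a match, which were those of EZH1 and SUZ12 and the window of EZH2 shown, against 3.31% of all 35116 windows of 300 bases and 8 of the 20 windows of the proliferation genes listed below. EZH2 has a second annotated start, with a window at chr7:148883436-148883735 on the same strand that held no match. The windows of the regulators held a median of 40 CG dinucleotides, against 30.5 in those of the proliferation genes and 14 in all windows. A match is a description of these letters and was not tested for binding or activity.

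Over all genes NC replicates 1, 2 and 3 held 14885355, 15171278 and 15191386 counts, and Si-HOXA3 replicates 1, 2 and 3 held 14652931, 15282307 and 14117150. Values of the 3 replicates of a group are given in that order throughout. Each regulator had at least 320 counts in each library. Levels are given as normalised read counts, in CPM, where each library is scaled to its normalized size, and levels between genes as CPM per kilobase of exon (RPKM). A count of 0 allows up to 3 counts, worth between 0.197 and 0.211 CPM, and this limit covers counting error only. HOXA3 itself was counted 248, 240 and 236 times with the control siRNA and 159, 199 and 220 times with its own, which is a log2 fold change of -0.27 (95% interval -0.62 to 0.07, adjusted p = 0.828), and of -0.28 without Si-HOXA3 replicate 2. The lower level of the target did not pass the test in these libraries, and the groups are called by their labels. HOXA3 overlaps antisense genes, and whether counting used the strand is not given in the sources used here.

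The labelled cell type was checked against its markers. EPCAM (253 to 386 CPM), CDH1 (540 to 683 CPM) and EYA1 (32.0 to 44.6 CPM) of the pouch list were present, whereas 7 of its 12 genes had too few counts for a test. Among them were PAX1, TBX1, FOXN1, GCM2, FOXA2 and SOX17, of which the highest value was 0.67 CPM, for TBX1 in NC replicate 1, and PAX9 stayed between 0 and 1.06 CPM. The 10 amnion and trophoblast markers summed to between 5952 and 7186 CPM, led by IGFBP3 (2938 to 3825 CPM), and included GABRP, KRT7, VTCN1, HAND1 and GATA3. COL1A1 and LUM of the 8 mesenchyme markers were present at 1323 to 1635 and 910 to 1335 CPM, while PRRX1 had no count. Of the 8 pluripotency markers LIN28A reached 1036 to 1196 CPM and NANOG stayed at or under 0.27 CPM, and of the 8 neural markers NES led with 64.6 to 94.8 CPM and NEUROG2 had no count. VIM (log2 fold change 0.50, unadjusted p = 0.00484 and adjusted p = 0.561) and TFAP2A (0.23, unadjusted p = 0.0496 and adjusted p = 0.781) were the marker genes with an unadjusted p under 0.05 in edgeR, both higher in Si-HOXA3, where 6.36% of all genes tested were under that limit. Without Si-HOXA3 replicate 2, a library described below, their log2 fold changes were 0.32 and 0.23. In that fit 5 of the 10 amnion and trophoblast markers (3 higher and 2 lower) and 4 of the 7 mesenchyme markers tested (3 higher and 1 lower) had an unadjusted p under 0.05 in edgeR, against 10.7% of all genes, and none of them passed adjustment. Among them, and named after their values were seen, were CGA, a subunit of placental hormones, with a log2 fold change of -0.64 without that library and -0.45 with it, and PDGFRB, a growth factor receptor of mesenchyme, with 0.32 and 0.15. The median log2 fold change of the amnion and trophoblast markers was 0.12 with all libraries and 0.09 without that one, and that of the mesenchyme markers was 0.14 and 0.20. It was 0.17 and 0.04 for the 5 pouch markers tested, and 0.26 for the 2 neural markers tested, or 0.25 for the 3 tested without that library. All 5 pluripotency markers tested were fitted higher (median 0.13, and 0.08 with 4 of 5 higher without that library). The groups of LIN28A and POU5F1 did not overlap, against 13.3% of all genes. The same held, with Si-HOXA3 higher, for 3 of the 10 amnion and trophoblast markers and 1 of the 7 mesenchyme markers tested. It held for none of the pouch and neural markers tested. The levels below are those of the cultures as they were, and in bulk RNA fewer cells of a type and less RNA per cell cannot be told apart. The part of other cell types in the values of the regulators was not tested.

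One library stood apart before any group was compared. Si-HOXA3 replicate 2 differed from the other 2 Si-HOXA3 libraries by a chi-square of 31 and 34.1 per degree of freedom over all genes, against 4.83 to 9.48 for every other pair of the same group. Its deviations moved with the length of the transcript. Over the 16561 genes tested, the Spearman correlation across genes between its deviation from the mean of the 6 libraries and the longest annotated transcript was -0.391, while it lay between 0.0745 and 0.154 in the other 5 libraries. Genes are not independent replicates, and this is a description. The 1314 genes with a transcript over 8000 bases had a median deviation of -0.300 on the log2 scale in this library and of 0.030 to 0.089 in the others, and the 2552 genes of 1000 to 2000 bases had one of 0.245 in this library and of -0.047 to -0.007 in the others. What set this library apart was not tested. Log2 fold changes below are therefore given with and without it.

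**Figure D1:**
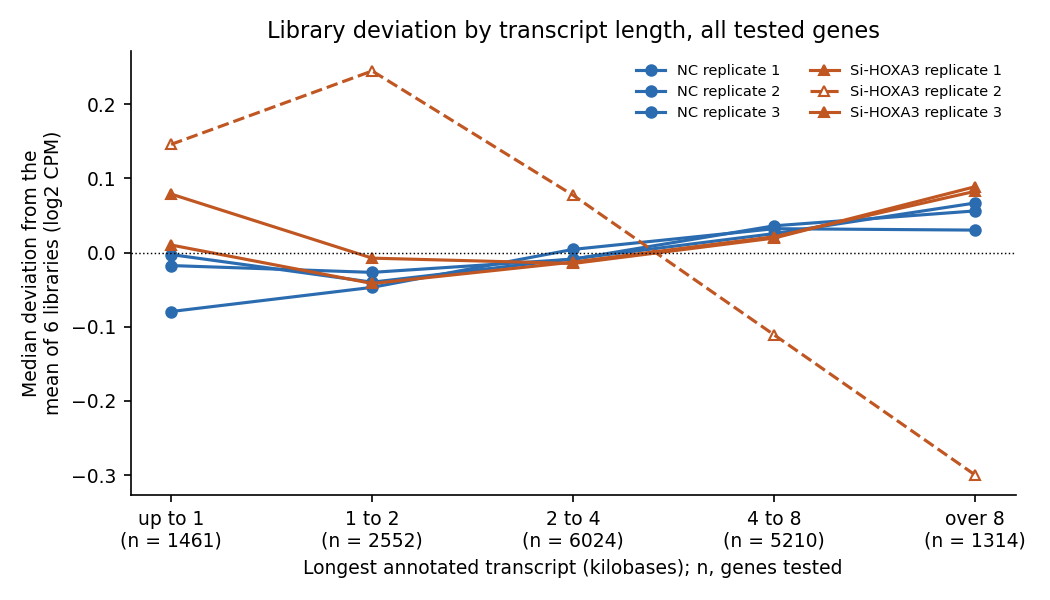
Median deviation of each library from the mean of the 6 libraries (vertical axis, log2 CPM) for genes in 5 classes of longest annotated transcript (horizontal axis, kilobases), with NC as circles, Si-HOXA3 as triangles and Si-HOXA3 replicate 2 as open triangles on a broken line. That library goes from 0.245 for genes of 1 to 2 kilobases to -0.300 for genes over 8 kilobases, and the other 5 stay between -0.079 and 0.089.

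None of the 10 regulators passed the comparison of Si-HOXA3 with NC by edgeR's quasi-likelihood test with Benjamini-Hochberg adjustment over all 16561 genes tested. The adjusted p-values lay between 0.856 and 0.996, and 0 of the 10 had an unadjusted p under 0.05. The background in this comparison was low, with 0.00604% of all genes (1 gene) called at an adjusted p under 0.05 and 6.36% at an unadjusted p under 0.05. Of the regulators 5 were fitted higher and 5 lower, with log2 fold changes of Si-HOXA3 over NC between -0.12 and 0.21 and a median of 0.04, which was 0.02 without Si-HOXA3 replicate 2. The median over all genes was 0.00, and the median size of a log2 fold change over all genes was 0.139. A p that misses the threshold does not show equal levels, and the 95% intervals below give the range of differences that these 6 cultures allow. All 10 passed the filter on low counts.

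**Figure D2:**
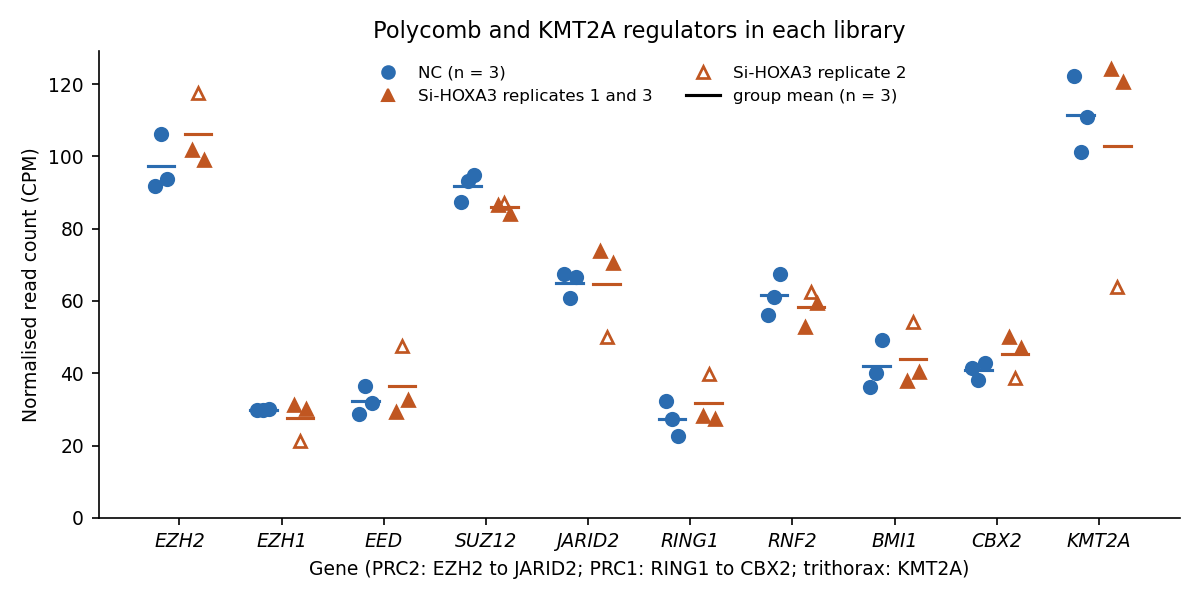
Normalised read count (vertical axis, CPM) of each regulator (horizontal axis) in the 3 NC libraries (circles), Si-HOXA3 replicates 1 and 3 (filled triangles) and Si-HOXA3 replicate 2 (open triangles), with a bar at each group mean. The open triangle lies below the other 5 libraries for EZH1, JARID2 and KMT2A, and above them for EZH2, EED, RING1 and BMI1.

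EZH2, the catalytic subunit of PRC2 known from dividing cells (ENSG00000106462, chromosome 7 from 148807383 to 148884321 on the minus strand), was the most abundant of the 10 genes per length. It had 91.8, 106.3 and 93.7 CPM in NC, and the Si-HOXA3 libraries had 101.7, 117.6 and 99.1 CPM. The groups overlapped, and the highest value was that of Si-HOXA3 replicate 2. Its log2 fold change was 0.13 (95% interval -0.11 to 0.36, adjusted p = 0.863), and 0.04 (-0.13 to 0.21) without that library. EZH1, the paralog known from cells that have stopped dividing (ENSG00000108799, chromosome 17 from 42700275 to 42745049 on the minus strand), had 29.8, 29.9 and 30.1 CPM in NC, and the Si-HOXA3 libraries had 31.1, 21.3 and 30.1 CPM. The 5 libraries other than Si-HOXA3 replicate 2 lay within 29.8 to 31.1 CPM, and that library stood at 70.4% of their mean. The log2 fold change of EZH1 was -0.12 (95% interval -0.45 to 0.20, adjusted p = 0.901), and 0.03 (-0.19 to 0.26) without it.

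The ratio of EZH2 to EZH1 does not depend on how libraries are scaled. Per kilobase of exon EZH2 was 4.76, 5.50 and 4.80 times as abundant as EZH1 in the NC libraries and 5.05, 8.54 and 5.08 times in the Si-HOXA3 libraries. The groups overlapped, and the ratio of Si-HOXA3 replicate 2 stood above the other 5. The mean log2 ratio was 2.33 ± 0.117 in NC and 2.59 ± 0.435 in Si-HOXA3 (SD, n = 3 each), a difference of 0.27 (exact permutation test, two-sided, p = 0.5, and 0.5 after adjustment over the 2 ratios tested). The smallest p that 3 cultures against 3 allow is 0.1. Without Si-HOXA3 replicate 2 the difference was 0.02.

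EED, the subunit that binds the methylated histone tail (ENSG00000074266, chromosome 11 from 86244544 to 86278813 on the plus strand), had 28.8, 36.35 and 31.7 CPM in NC, and the Si-HOXA3 libraries had 29.4, 47.5 and 32.7 CPM. Si-HOXA3 replicates 1 and 3 lay inside the NC range, and replicate 2 was at 149.6% of the mean of the other 5. EED had a log2 fold change of 0.18 (95% interval -0.21 to 0.56, adjusted p = 0.883) with all libraries and -0.06 (-0.31 to 0.19) without that one. SUZ12, which holds the PRC2 core together (ENSG00000178691, chromosome 17 from 31937018 to 32001045 on the plus strand), had 87.3, 93.2 and 94.98 CPM in NC, and the Si-HOXA3 libraries had 86.7, 87.1 and 83.95 CPM. It was the only regulator whose groups did not overlap, with Si-HOXA3 lower, against 13.3% of all genes tested whose groups did not overlap in either direction. The gap between the highest Si-HOXA3 and the lowest NC library was narrow. Its log2 fold change was -0.10 (95% interval -0.30 to 0.11, adjusted p = 0.882), and -0.11 (-0.27 to 0.05) without Si-HOXA3 replicate 2. SUZ12 also varied least over the 6 libraries, with an SD of 4.78% of its mean. Of the 50-base stretches of SUZ12 7.66% also occur in another annotated gene, most of them in the pseudogene SUZ12P1, which had 341 to 438 counts, so reads may have been split between them.

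JARID2, which takes part in bringing PRC2 to its targets and is known from embryonic stem cells (ENSG00000008083, chromosome 6 from 15246296 to 15522040 on the plus strand), had 67.5, 60.8 and 66.6 CPM in NC. In Si-HOXA3 it had 73.8, 50.1 and 70.5 CPM, with replicates 1 and 3 above and replicate 2 below every NC library. The group means hid this spread, at 64.9 ± 3.61 CPM for NC and 64.8 ± 12.9 CPM for Si-HOXA3 (SD, n = 3 each). JARID2 had a log2 fold change of 0.00 (95% interval -0.32 to 0.31, adjusted p = 0.996), and 0.15 (-0.03 to 0.33, adjusted p = 0.562) without replicate 2.

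RING1 and RNF2 encode the paralogous ubiquitin ligases of PRC1. RING1 (ENSG00000204227, chromosome 6 from 33208495 to 33212722 on the plus strand) had 32.4, 27.3 and 22.6 CPM in NC, and the Si-HOXA3 libraries had 28.1, 39.8 and 27.4 CPM. It had the shortest transcript of the 10 genes, and Si-HOXA3 replicate 2 lay at 144.3% of the mean of the other 5. Its log2 fold change was 0.21 (95% interval -0.18 to 0.60, adjusted p = 0.859), the farthest from 0 among the regulators, and 0.01 (-0.27 to 0.30) without that library. RNF2 (ENSG00000121481, chromosome 1 from 185045364 to 185102608 on the plus strand) had 56.3, 61.1 and 67.5 CPM in NC, and the Si-HOXA3 libraries had 52.9, 62.5 and 59.6 CPM. The groups overlapped, and Si-HOXA3 replicate 2 lay inside the range of the others. The log2 fold change of RNF2 was -0.08 (95% interval -0.33 to 0.17, adjusted p = 0.916), and -0.14 (-0.34 to 0.07) without that library.

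Per length the paralogous ligases stood near equal levels, and their order differed between cultures. RNF2 over RING1 was 0.774, 0.999 and 1.33 in the NC libraries and 0.841, 0.702 and 0.971 in the Si-HOXA3 libraries. The mean log2 ratio was 0.01 ± 0.393 in NC and -0.27 ± 0.235 in Si-HOXA3 (SD, n = 3 each), and the difference of -0.28 was within the spread of the cultures (exact permutation test, two-sided, p = 0.4, and 0.5 after adjustment over the 2 ratios). With each library left out in turn the difference ran from -0.47 without NC replicate 1 to -0.08 without NC replicate 3, and it was -0.16 without Si-HOXA3 replicate 2. The widest spread lay between NC libraries, where NC replicate 3 was high in RNF2 and low in RING1. That library also had a median deviation of -0.111 on the log2 scale in the fifth of genes richest in GC, against -0.019 to 0.061 in the other 5 libraries, and the part of this in the ratio was not tested.

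BMI1, a PCGF subunit that supports the ligase and is known from stem cells (ENSG00000168283, chromosome 10 from 22321211 to 22331484 on the plus strand), had 36.3, 40.1 and 49.2 CPM in NC, and the Si-HOXA3 libraries had 37.7, 54.2 and 40.3 CPM. Each group had a library apart from its other 2, so the groups overlapped widely. The difference of BMI1 was 0.07 on the log2 scale (95% interval -0.28 to 0.42, adjusted p = 0.942), and -0.11 (-0.36 to 0.15) without Si-HOXA3 replicate 2. Of its 50-base stretches 21.3% are shared, with the COMMD3-BMI1 readthrough gene, which had no count in any library. CBX2, the subunit that binds the mark of PRC2 and can compact chromatin (ENSG00000173894, chromosome 17 from 79778132 to 79787983 on the plus strand), had 41.4, 38.1 and 43.0 CPM in NC, and the Si-HOXA3 libraries had 50.0, 38.8 and 47.1 CPM. Si-HOXA3 replicates 1 and 3 lay above all NC libraries and replicate 2 inside their range. Its log2 fold change was 0.15 (95% interval -0.12 to 0.42, adjusted p = 0.856). Without replicate 2 it was 0.25 (0.04 to 0.45), with an unadjusted p of 0.0212 and an adjusted p of 0.379 in edgeR, and CBX2 was the only 1 of the 10 under 0.05 unadjusted, where 10.7% of all 17144 genes then tested were. In that fit 0.14% of all genes (24 genes) passed an adjusted p of 0.05, and 0 of the 10 regulators did.

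KMT2A, the histone H3 lysine 4 methyltransferase (ENSG00000118058, chromosome 11 from 118436464 to 118526832 on the plus strand), had the longest transcript of the 10 genes and differed most between libraries. It had 122.2, 101.3 and 110.8 CPM in NC, and the Si-HOXA3 libraries had 124.1, 64.0 and 120.7 CPM. Si-HOXA3 replicates 1 and 3 lay in the upper part of the NC range or just above it, and replicate 2 was at 55.2% of the mean of the other 5. With all libraries the log2 fold change was -0.11 (95% interval -0.57 to 0.34, adjusted p = 0.933), and without replicate 2 it was 0.13 (-0.04 to 0.31, adjusted p = 0.596). The direction of KMT2A therefore rested on 1 library. Of its 50-base stretches 17.4% are shared with other genes, nearly all with AP001267.5, an overlapping gene on the same strand that had 1 to 5 counts.

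**Figure D3:**
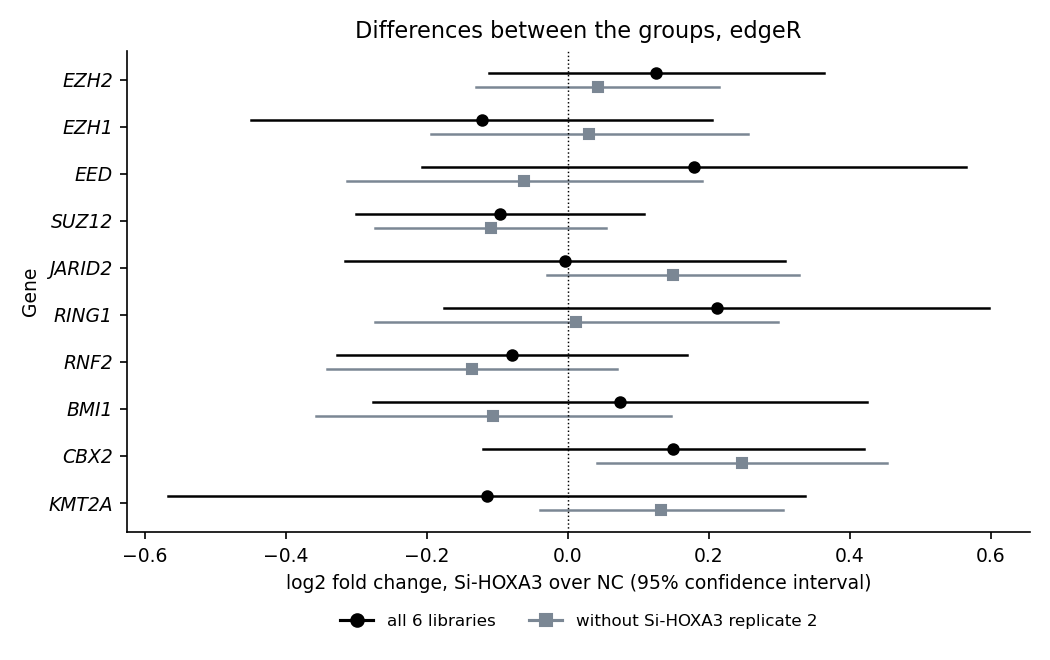
The log2 fold change of Si-HOXA3 over NC (horizontal axis) of each regulator (vertical axis) with its 95% confidence interval from edgeR, for all 6 libraries (black circles) and without Si-HOXA3 replicate 2 (grey squares). All intervals from the 6 libraries include 0, and 5 of the 10 estimates change sign without that library.

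Leaving out Si-HOXA3 replicate 2 turned the sign of 5 of the 10 estimates. Those of EZH1 and KMT2A went from lower to higher and those of EED and BMI1 from higher to lower. JARID2 also went from below to above 0, but it stood at only -0.00345 with that library. In that library 3 regulators (EZH1, JARID2 and KMT2A) lay below and 4 (EZH2, EED, RING1 and BMI1) above all the other 5 libraries. The order followed the length of the transcript. The longest annotated transcript ran from 1752 bases in RING1 and 2767 in EED to 5755 in JARID2 and 16628 in KMT2A, and the log2 ratio of this library to the mean of the other 5 went from 0.53 and 0.58 to -0.44 and -0.86 in the same genes. Across the 10 genes the Spearman correlation of this log2 ratio with length was -0.939, and it was -0.711 across 78 genes with the partner genes described next. These points share 1 library and are given as a description. The same library deviated with length over all 16561 genes tested (Spearman correlation -0.391). How many of all genes lay outside the other 5 libraries or changed sign is not given here. Of the 20 regulators and partners with a transcript over 8000 bases, 19 were lower in Si-HOXA3 replicate 2 than in each of the other 5 libraries.

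**Figure D4:**
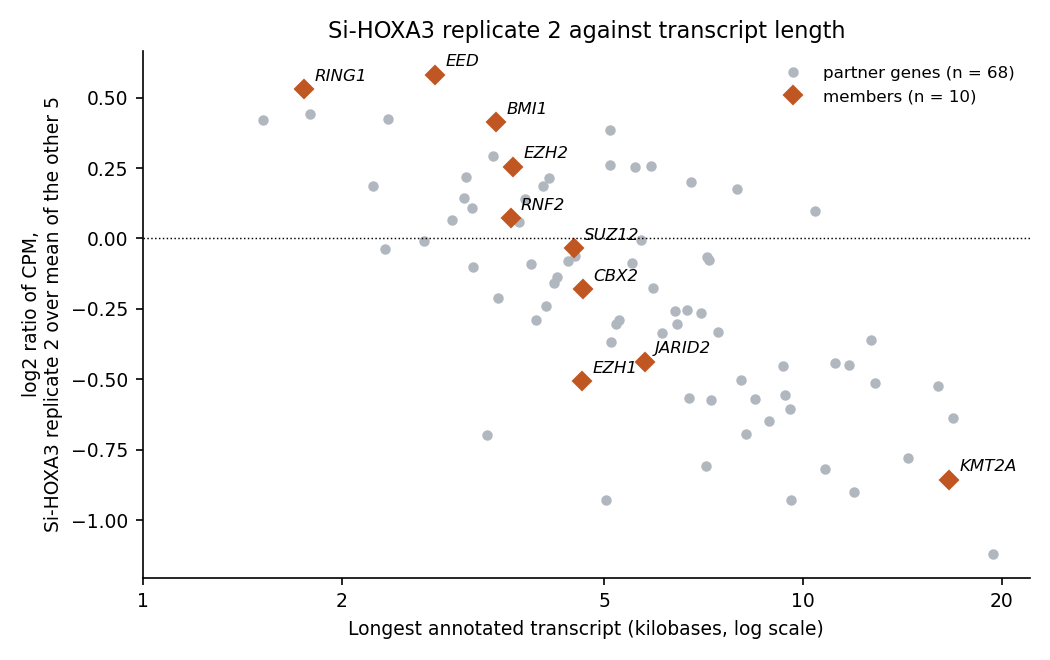
The log2 ratio of CPM in Si-HOXA3 replicate 2 over the mean of the other 5 libraries (vertical axis) against the longest annotated transcript (horizontal axis, kilobases, log scale) for the 10 regulators (diamonds, named) and 68 partner genes (grey circles). Among the regulators the ratio runs from 0.58 for EED to -0.86 for KMT2A, and among the partners it goes down to -1.12 for KMT2D.

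Within the cells the regulators differed more from each other than between the groups. In NC the mean level per length was 21.5 ± 1.75 RPKM for EZH2, followed by 15.1 ± 1.39 for RNF2, 15.1 ± 2.70 for RING1 and 14.03 ± 0.610 for SUZ12 (SD, n = 3 each). JARID2 stood at 10.8 ± 0.601 RPKM, BMI1 at 9.78 ± 1.54 and CBX2 at 7.18 ± 0.441. EED (4.602 ± 0.543 RPKM), EZH1 (4.28 ± 0.025) and KMT2A (3.56 ± 0.334) were lowest. Of the neighbours in this order, EZH2 and RNF2 and likewise SUZ12 and JARID2 did not overlap over the 6 libraries, and the other 7 neighbouring pairs did. EZH2 and RING1, which are not neighbours, did overlap. RING1 reached 21.87 RPKM in Si-HOXA3 replicate 2, and the lowest value of EZH2 was 20.3 RPKM in NC replicate 1. The order depends on the length used for each gene. With the longest transcript in place of all exons EZH2 stayed first (26.7 RPKM), SUZ12 came second (20.5 RPKM), EED moved from place 8 to place 6 (11.7 RPKM), and KMT2A (6.70 RPKM) and EZH1 (6.48 RPKM) were lowest. EZH2 exceeded EZH1 in each of the 6 libraries under both lengths.

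The partners with which these regulators work were examined as 7 lists, 69 genes in all, of which 68 had enough counts for a test. None of the 68 had an adjusted p under 0.05, and 0 had an unadjusted p under 0.05, against 6.36% of all genes. Of these genes 27 were fitted higher and 41 lower in Si-HOXA3, with a median log2 fold change of -0.04. The groups did not overlap for 5 of them, against 13.3% of all genes. Among the 5, 2 were higher (CXXC1 and PCGF3, both named after their values were seen) and 3 lower, AFF4 and RYBP among the latter. Si-HOXA3 replicate 2 lay below the other 5 libraries for 34 of the 68 genes and above them for 15. Without it the split was 37 higher and 31 lower, the median was 0.01, and 24 genes changed sign. How many of all genes tested lay outside the other 5 libraries or changed sign is not given, here or for the lists below. Over all 16561 genes tested this library deviated with transcript length (Spearman correlation -0.391).

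Of the PRC2 partners 9 of 10 were tested, 4 higher and 5 lower, with a median log2 fold change of -0.01, and without Si-HOXA3 replicate 2 they were 2 higher and 7 lower with a median of -0.05. RBBP7, a histone binding protein, was the most abundant per length (40.6 RPKM in NC), with 275.7, 295.1 and 329.6 CPM in NC, and the Si-HOXA3 libraries had 263.5, 321.3 and 249.2 CPM. These groups overlapped, and the log2 fold change of RBBP7 was -0.11 with all libraries and -0.23 without replicate 2. EZHIP, an inhibitor of PRC2, had no count in any library. Among the 10 canonical PRC1 partners 4 were higher and 6 lower, with a median of -0.10 with all libraries and -0.05 without replicate 2. PHC2, a polyhomeotic protein, led them with 15.3 RPKM and a log2 fold change of -0.09, and of -0.07 without replicate 2. Among the 15 subunits of variant PRC1 6 were higher and 9 lower (median -0.08), and without replicate 2 the split was 7 and 8 (median -0.0069). RYBP, which takes the place of a CBX protein in variant PRC1, led them with 12.6 RPKM. It had 85.4, 94.25 and 92.0 CPM in NC, and the Si-HOXA3 libraries had 83.3, 82.7 and 80.8 CPM, so the groups did not overlap, with a log2 fold change of -0.14 (95% interval -0.34 to 0.07, adjusted p = 0.844), and of -0.15 without replicate 2.

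The PR-DUB complex removes the ubiquitin that PRC1 attaches. Of its 8 genes 1 was higher and 7 lower (median log2 fold change -0.11), and all 8 were lowest in Si-HOXA3 replicate 2. Without that library 7 were higher and 1 lower (median 0.05). OGT, a sugar transferase bound to this complex and the most abundant per length (39.3 RPKM), had 371.5, 380.1 and 404.6 CPM in NC, and the Si-HOXA3 libraries had 402.6, 259.9 and 377.1 CPM. The log2 fold change of OGT was -0.15 with all libraries and 0.01 without replicate 2.

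The genes of the KMT2 and SETD1 complexes, which work with KMT2A or beside it, were 8 higher and 7 lower (median 0.00), and 9 higher and 6 lower without Si-HOXA3 replicate 2 (median 0.02). Without Si-HOXA3 replicate 3 the median was -0.09. PSIP1, which tethers KMT2A to chromatin, led them with 29.03 RPKM and a log2 fold change of 0.13 (95% interval -0.12 to 0.37, adjusted p = 0.867). In replicate 2 it lay at 122.6% of the mean of the other 5, and without that library its log2 fold change was 0.02. Of the other 9 trithorax genes and KMT2A partners 3 were higher and 6 lower (median -0.07). Without replicate 2 the split turned to 6 higher and 3 lower (median 0.12). AFF4, a scaffold of the super elongation complex, led with 20.3 RPKM. It had 226.3, 232.0 and 228.3 CPM in NC, and the Si-HOXA3 libraries had 216.8, 148.0 and 222.6 CPM, so the groups did not overlap, and its log2 fold change was -0.23 (adjusted p = 0.830) with all libraries and -0.06 without replicate 2. KDM6A and KDM6B remove methyl groups from lysine 27 of histone H3. KDM6A (23.1 RPKM) had a log2 fold change of 0.00 and KDM6B one of 0.06, and both were lowest in Si-HOXA3 replicate 2. Without that library they had 0.06 and 0.26, and the median of the pair was 0.16 in place of 0.03.

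**Figure D5:**
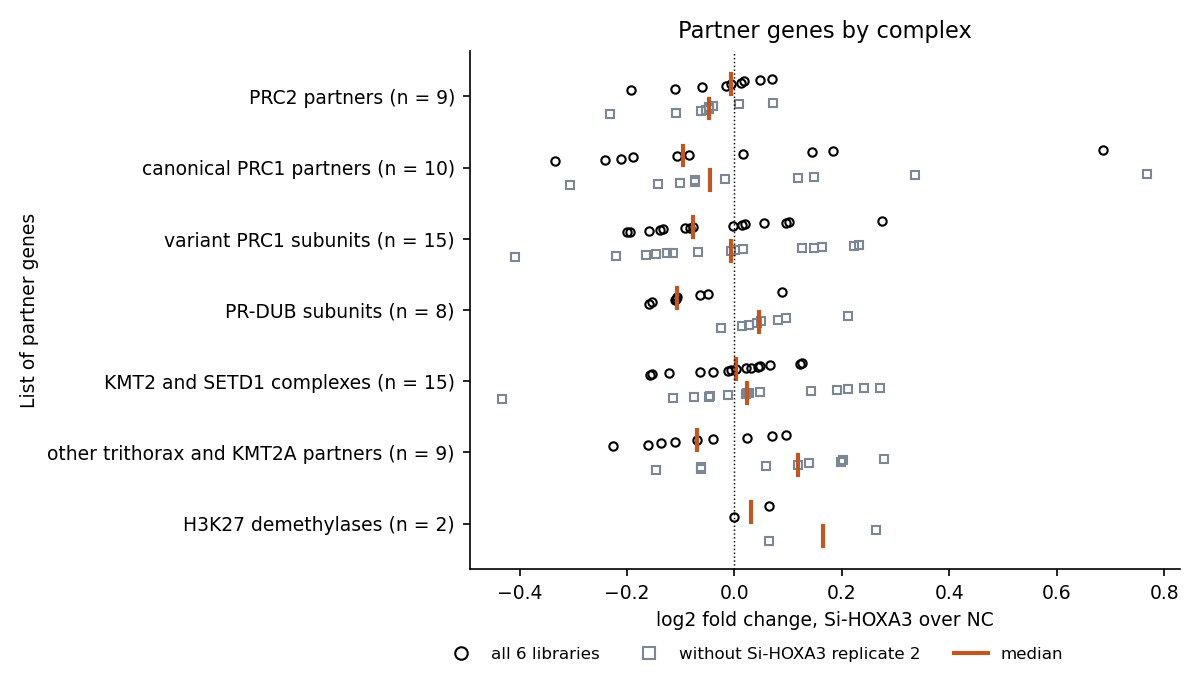
The log2 fold change of Si-HOXA3 over NC (horizontal axis) of the 68 partner genes in 7 lists (vertical axis), for all 6 libraries (black circles) and without Si-HOXA3 replicate 2 (grey squares), with a bar at each median. The medians lie between -0.11 and 0.03 with all libraries, and that of the PR-DUB list moves from -0.11 to 0.05.

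Without Si-HOXA3 replicate 2, 12 of the 68 partners had an unadjusted p under 0.05 in edgeR, 10 higher and 2 lower, against 10.7% of all genes, and 0 passed adjustment (smallest adjusted p = 0.229). These genes are named after their values were seen. The higher ones were KMT2B, KMT2C and KMT2D, which are relatives of KMT2A, the acetyltransferases CREBBP and EP300, DOT1L, KDM6B, FOXK2, CBX6 and CBX8, and the lower ones were RBBP7 and TASP1, the protease that cuts KMT2A. KMT2D, with 245.8, 179.7 and 199.7 CPM in NC, and the Si-HOXA3 libraries had 251.0, 103.9 and 253.0 CPM, had a log2 fold change of 0.27 without that library and of -0.04 with it. CREBBP, with 173.0, 143.6 and 141.6 CPM in NC, and the Si-HOXA3 libraries had 184.0, 94.2 and 187.5 CPM, had 0.28 without it and 0.02 with it. In both genes replicates 1 and 3 of Si-HOXA3 lay above all NC libraries and replicate 2 below them. How many of all genes did the same is not given here.

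EZH2 and other Polycomb genes are known to rise and fall with cell division, so 16 proliferation genes were placed beside them. Of these 5 were fitted higher and 11 lower, with a median log2 fold change of -0.01 and 0 unadjusted p-values under 0.05, against 6.36% of all genes. Without Si-HOXA3 replicate 2 they were 2 higher and 14 lower (median -0.06), and 2 had an unadjusted p under 0.05 in edgeR, MKI67 and CDK1, both named after their values were seen, against 10.7% of all genes. PCNA, the sliding clamp of DNA replication and the most abundant per length (159 RPKM), had 224.4, 233.8 and 242.9 CPM in NC, and the Si-HOXA3 libraries had 236.4, 322.6 and 209.9 CPM. As for EZH2, its highest value was that of Si-HOXA3 replicate 2, and its log2 fold change of 0.13 became -0.07 without that library. MKI67, a protein of dividing cells with a transcript of 12678 bases, showed the opposite, with its lowest value in replicate 2 (57.1% of the mean of the other 5). Its log2 fold change was 0.05 with all libraries and 0.30 without that one (unadjusted p = 0.00139 and adjusted p = 0.162 in edgeR), and that of CDK1 was -0.02 and -0.18.

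The HOX genes are the classic targets of both groups of regulators. Of the 39 HOX genes 11 had enough counts for a test, 17 had no count in any library and 25 had at most 3 counts in each. The clusters differed. In HOXB 7 of 10 genes were tested and in HOXA 3 of 11, whereas in HOXC 1 of 9 was tested and in HOXD all 9 genes had no count in any library. HOXB2 was the most abundant per length (35.7 RPKM), with 1252, 1325 and 1204 counts for NC and 1286, 1840 and 1266 for Si-HOXA3. It was the 1 HOX gene of the 11 tested whose groups did not overlap in CPM, against 13.3% of all genes, with a log2 fold change of 0.26 (adjusted p = 0.791) with all libraries and 0.09 without Si-HOXA3 replicate 2, where it lay at 142.9% of the mean of the other 5. Of the 11 tested HOX genes 7 were higher and 4 lower, or 5 and 6 without that library, and with all libraries none was called or had an unadjusted p under 0.05 in edgeR, against 6.36% of all genes. Without it 1 of the 11 did, against 10.7% of all genes. This was HOXB4, named after its values were seen, with an unadjusted p of 0.0499 (adjusted p = 0.468 in edgeR) and a log2 fold change of 0.36 against 0.32 with all libraries. The median log2 fold change of the 11 was 0.11 with all libraries and 0.00 without Si-HOXA3 replicate 2. Histone marks and Polycomb binding were not analysed here, so the lack of counts in HOXD is given beside the levels of the regulators, and its relation to them was not tested.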

How the data were processed

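RNA-seq libraries from 3 NC and 3 Si-HOXA3 cultures were made with the LM-Seq protocol, and the labels also name a SMARTER kit. The authors deposited raw counts of reads per gene, as whole numbers without normalization. The aligner, counting program and use of strand are not given in the sources used here. The submitters' processing notes name the mouse build GRCm38 (mm10), whereas all 58735 identifiers are human and match GENCODE release 29 on GRCh38, which gave symbols, positions and lengths. How reads that match several genes were counted is also not given, and whether reads of the mouse feeder cells were among those counted was not tested, which bears on every level, the mesenchyme markers included.

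The analysis used edgeR 4.0.16 in R 4.3.3 (filterByExpr, TMM, robust quasi-likelihood fit, two-sided test, Benjamini-Hochberg adjustment), which kept 16561 genes, and 24222 genes had no count. The ratios of paralogs were compared by exact permutation tests. RPKM was computed here from CPM and the summed exon length. Alternatives were DESeq2 1.42.0, library size only, no filter, CPM above 1 in 3 or more libraries, a block for the replicate number, each library left out in turn and the longest transcript as length. A correction for length and GC content of the transcripts with mgcv 1.9.3 was added after seeing the data. The fit was tested on simulated data.

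The 10 regulators were named in full, and of each list the genes with an unadjusted p under 0.05 in the fit of all 6 libraries and the most abundant per length. Other genes were named to check the cell type or, where so stated, after their values were seen. The regulators and lists were chosen with earlier results of these data known. No 2 libraries of the same group agreed within sampling noise, and pairs across groups were not compared. The labels do not say that the 3 cultures of a group were started separately. The paper's caption to the figure with the RNA-seq heat maps gives 3 independent biological repeats. The p-values measure the spread between these cultures. Single values of some genes are not reported here.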

Additional observations from a re-analysis of the deposited data

How the results depend on the processing

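None of the 10 regulators was called under any alternative, and their adjusted p-values ranged from 0.379 to 0.999. Of the 120 estimates of single regulators under an alternative 111 kept their direction and 9 changed it. Without Si-HOXA3 replicate 2 the log2 fold change was 0.030 for EZH1, -0.062 for EED, 0.15 for JARID2, -0.11 for BMI1 and 0.13 for KMT2A. Without NC replicate 1 it was 0.02 for JARID2 and -0.02 for BMI1, without NC replicate 3 it was 0.01 for JARID2, and the correction for length and GC content gave 0.043 for JARID2, whose main value was 0.00. With each library left out in turn the estimates ranged from -0.22 to 0.03 for EZH1, -0.06 to 0.31 for EED, -0.11 to 0.15 for JARID2, -0.11 to 0.21 for BMI1 and -0.27 to 0.13 for KMT2A. For the other 5 they ranged from 0.01 to 0.35 for RING1, -0.14 to -0.0084 for RNF2, 0.04 to 0.19 for EZH2, 0.07 to 0.25 for CBX2 and -0.13 to -0.07 for SUZ12, and the median of the 10 from -0.00226 to 0.05. The correction for length and GC content brought KMT2A from -0.11 to -0.07, RING1 from 0.21 to 0.09 and SUZ12 from -0.10 to -0.05, and the median of the 10 from 0.04 to 0.06. The medians of the partner lists with each library left out ranged from -0.05 to 0.02 for PRC2, -0.13 to -0.05 for canonical PRC1, -0.04 to -0.0069 for variant PRC1, -0.19 to 0.05 for PR-DUB, -0.09 to 0.05 for KMT2 and SETD1, -0.21 to 0.12 for the other trithorax genes and -0.05 to 0.16 for the demethylases.

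The number of genes called among all tested, 1 in edgeR, was 38 with DESeq2 and 100 with no filter, and it ranged from 1 to 24 with each library left out, 24 without Si-HOXA3 replicate 2. With a replicate block 4 genes were called and no regulator was. Libraries of the same number had deviations that correlated at 0.142, 0.104 and -0.059. These values do not settle whether the numbers pair the cultures, and the main fit treated them as unpaired. The cause of these shifts was not tested. Each regulator had at least 320 counts in a library, whereas the HOXD genes with no count may have up to 3 at this depth.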

Other observations

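HOXC13, named after its values were seen, was the HOXC gene with enough counts for a test, with 178, 208 and 183 counts for NC and 178, 245 and 246 for Si-HOXA3. The other 8 HOXC genes had at most 3 counts in each library. The log2 fold change of HOXC13 was 0.28 (95% interval -0.08 to 0.65, adjusted p = 0.828 from edgeR) with all libraries and 0.23 without Si-HOXA3 replicate 2, and the groups overlapped.

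CBX8, a relative of CBX2 in canonical PRC1 that was named after its values were seen, had the log2 fold change farthest from 0 among the 68 partners. It had 1.34, 2.64 and 1.51 CPM in NC, and the Si-HOXA3 libraries had 2.68, 2.59 and 3.59 CPM, a log2 fold change of 0.69 (95% interval -0.03 to 1.41, adjusted p = 0.781 from edgeR), and 0.77 without Si-HOXA3 replicate 2. CBX2 and CBX8 were both higher in Si-HOXA3 replicates 1 and 3 than in each NC library. For CBX8 the margin was minimal, with 39 counts in Si-HOXA3 replicate 1 (2.68 CPM) and 40 in NC replicate 2 (2.64 CPM). The share of all genes with this pattern is not given here.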
